A study of Danio rerio with 6 samples.

Results

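Serine, glycine and folate one-carbon enzymes were compared between sorted iridophores and a general control cell population of zebrafish larvae. The set was chosen by gene symbol: 10 symbols (phgdh, psat1, psph, shmt1, shmt2, mthfd1b, mthfd1l, mthfd2, gldc and aldh1l2) were looked up, and 9 of them had a row among the 11016 gene symbols of the count table. The symbol mthfd2 had no row of its own, although a suffixed row, mthfd2_1, was present. Of the 9 rows, 8 passed the filter on low counts and were tested, and mthfd1l did not pass.

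These enzymes supply carbon to purines, and iridophores are the pigment cells that pack purine crystals into reflecting platelets. Serine is made from a glycolytic intermediate by the enzymes of phgdh, psat1 and psph in turn. Serine hydroxymethyltransferase then splits serine into glycine and a carbon unit carried by tetrahydrofolate, in the cytosol (shmt1) or in mitochondria (shmt2). Folate enzymes of either compartment convert that unit to formyl groups or free formate. Glycine and formyl groups are both built into the purine ring, and the glycine cleavage system of mitochondria breaks glycine down again.

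The iridophores and the control cells both came from wild-type larvae at 5 days post fertilization that carried the pnp4a:PALM-mCherry transgene, in which the promoter of the purine metabolism gene pnp4a drives a membrane-bound red fluorescent protein. About 20000 cells were sorted per sample, in 3 biological replicates of each group. RNA was purified by its poly(A) tails and counted by a bulk form of MARS-seq, which reads the 3' ends of transcripts. Whether the control sort shut out reporter-positive cells is not stated in the labels.

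Total counts were 616439 to 1686552 in the iridophore libraries and 1612637 to 3282480 in the control libraries, so a count of 3, taken as the floor, stood for 1.69 to 5.50 CPM (counts scaled to the same total in every library) in iridophores and for 0.897 to 1.79 CPM in control cells. The gene behind the reporter, pnp4a, stood at 2406 ± 524 CPM in iridophores and 15.7 ± 5.78 CPM in control cells (mean ± SD, n = 3 each). Of 10 tested iridophore markers 9 were higher and 0 were lower in iridophores, and their summed level was 3394 to 5912 CPM in iridophores and 110.7 to 161.5 CPM in control cells. These markers include pnp4a itself, whose promoter drives the reporter and which alone gave 1801 to 2710 CPM of the iridophore sum. They also include atic and gart, which are described again below, so the marker count is not independent of the sort or of those genes. Skeletal muscle markers were also higher, 7 of 10, and intestinal markers lower, 5 of 7. Of 4 tested melanophore markers 2 were higher and 0 were lower, with log2 fold changes of -1.366 to 6.675. Of 4 tested xanthophore markers 2 were higher and 2 were lower, with log2 fold changes of -1.093 to 6.558. The 1 tested macrophage marker and 1 of 5 tested glia markers were higher. These, several of the iridophore markers and some of the higher melanophore and xanthophore markers passed the count filter only through the iridophore libraries. Their calls are therefore not independent evidence. Over all tested genes 22.1% were higher and 17.8% lower. By the endings of the library names, replicates 2 and 3 of both groups belong together and replicate 1 stands apart.

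Of the 8 tested enzymes 5 were higher and 2 were lower in iridophores in edgeR's quasi-likelihood test at an adjusted p under 0.05. Over all 6849 tested genes 22.1% were called higher and 17.8% lower. The CPM values of the groups did not overlap for 7 of the 8, against 51.8% of all tested genes. The median log2 fold change was 1.42 over the 8 enzymes and 0.01 over all tested genes. The 5 that were higher were the 3 genes of serine synthesis and both cytosolic steps, shmt1 and mthfd1b. The 2 that were lower were gldc, of glycine cleavage, and aldh1l2, of mitochondrial formyl folate oxidation. Of these, aldh1l2 passed the count filter only through the control libraries, where it is high. Its call and its lack of overlap are therefore not independent evidence. In these bulk samples, fewer cells of a type and less RNA per cell cannot be told apart.

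Among the tested enzymes, the largest changes were those of serine synthesis. The gene phgdh encodes phosphoglycerate dehydrogenase, the first enzyme of the route. It was measured at 462, 672 and 608.5 CPM in iridophore replicates 1, 2 and 3, and at 11.7, 28.0 and 29.2 CPM in the control replicates. The groups lay far apart, and the lowest of the 6 values was control replicate 1. Its log2 fold change was 4.69 (edgeR adjusted p 1.075e-05, SE 0.37), which ranked 176th of the 6849 tested genes from the highest. Expressed as a ratio of group means, phgdh was 25.3-fold higher in iridophores.

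The aminotransferase gene psat1, whose enzyme acts next, was measured at 549.5, 685 and 561 CPM in iridophore replicates 1, 2 and 3, and at 21.5, 17.3 and 34.4 CPM in the control replicates. No iridophore value came near a control value. The log2 fold change of psat1 was 4.61 (edgeR adjusted p 4.435e-06, SE 0.29), the 185th from the highest. The approximate 95% intervals of phgdh (3.88 to 5.50) and psat1 (3.96 to 5.27) covered nearly the same range.

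The phosphatase gene psph, whose enzyme releases free serine in the last step, rose less. Its levels were 317, 463 and 419 CPM in iridophore replicates 1, 2 and 3, and 47.6, 41.7 and 52.3 CPM in the control replicates. Again the groups did not overlap, and iridophore replicate 1 was the lowest of its group for all 3 genes of serine synthesis. The log2 fold change of psph was 3.08 (edgeR adjusted p 8.619e-06, SE 0.23), with an interval of 2.57 to 3.60 that lay under those of phgdh and psat1. The difference between the 3 fold changes was not tested. The summed level of the 3 genes was 1328 to 1821 CPM in iridophores and 80.8 to 115.9 CPM in control cells.

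**Figure D1:**
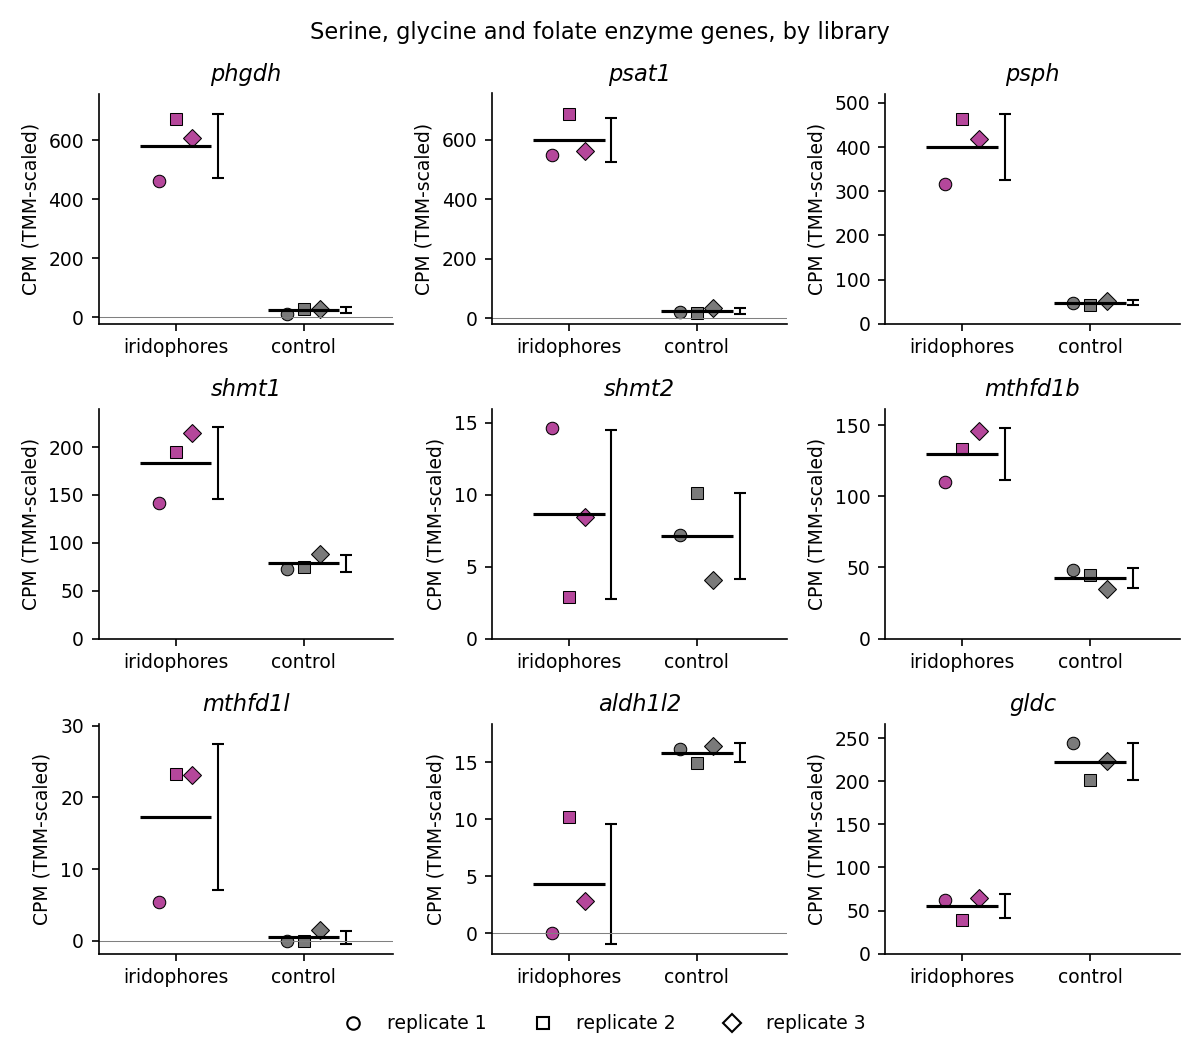
Levels of the 9 enzyme genes with a row, in CPM scaled by trimmed mean of M values, with 1 symbol per library, the mean as a horizontal line and the SD as a bar (n = 3 per group), and axes that differ between genes. In CPM the groups do not overlap for any gene except shmt2. Of the rest, gldc and aldh1l2 are lower in iridophores and the other 6 are higher. For mthfd1l, which was not tested, iridophore replicate 1 and control replicate 3 both had 3 counts, the floor.

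Both cytosolic steps rose, by less than serine synthesis. The gene shmt1, which encodes cytosolic serine hydroxymethyltransferase, was measured at 141.1, 194.6 and 214 CPM in iridophore replicates 1, 2 and 3, and at 72.7, 74.4 and 88.7 CPM in the control replicates. All iridophore values lay above all control values. The log2 fold change of shmt1 was 1.23 (edgeR adjusted p 0.00206, SE 0.23).

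The gene mthfd1b encodes the cytosolic folate enzyme that interconverts methylene, methenyl and formyl forms and joins formate to tetrahydrofolate. It had 109.9, 133.6 and 146.2 CPM in iridophore replicates 1, 2 and 3, and 48.5, 44.6 and 34.9 CPM in the control replicates. The iridophore libraries were all above the control libraries, with a log2 fold change of 1.61 (edgeR adjusted p 0.000433, SE 0.23). The intervals of mthfd1b (1.104 to 2.12) and shmt1 (0.73 to 1.73) overlapped.

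The mitochondrial steps did not move together. The gene shmt2, of mitochondrial serine hydroxymethyltransferase, was weakly detected, with 14.65, 2.90 and 8.44 CPM in iridophore replicates 1, 2 and 3 and 7.18, 10.12 and 4.102 CPM in the control replicates. These values rested on 2 to 24 counts per library, and the groups overlapped. Its log2 fold change was 0.24 (edgeR adjusted p 0.743, SE 0.52), with an interval of -0.92 to 1.40. At this depth the values do not tell no change from a rise or a fall within that interval. The sign of the value changed when iridophore replicate 1 (-0.14) or control replicate 3 (-0.07) was left out.

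The gene mthfd1l encodes the mitochondrial enzyme that releases formate from formyl folate. It had 3, 16 and 41 counts in iridophore replicates 1, 2 and 3, which are 5.50, 23.2 and 23.1 CPM, and 0, 0 and 3 counts in the control replicates. Every control library was thus at or under the floor, and iridophore replicate 1 stood at it. The row was removed by the count filter and has no test in the comparison over all genes. Over the summed libraries, 60 counts in iridophores and 3 in the control gave a ratio of 46.3 after scaling, with an exact 95% interval of 15.1 to 231 that covers counting error only and not the spread between replicates. A row with the suffixed symbol mthfd1l_1 showed the same direction, with 14.65, 39.2 and 53.4 CPM in iridophore replicates 1, 2 and 3 and 0.299, 2.38 and 2.05 CPM in the control replicates. Its log2 fold change was 4.75 (edgeR adjusted p 0.000273, SE 0.62), and leaving out control replicate 1 gave 4.01. With 1, 4 and 4 counts in the control replicates, mthfd1l_1 passed the count filter only through the iridophore libraries. Its call is therefore not independent evidence for mthfd1l. The table does not say how the suffixed row relates to mthfd1l, and reads may have been split between them. With the pair of rows summed, an alternative chosen after the values were seen, the log2 fold change was 4.88 (edgeR adjusted p 0.000322, SE 0.65). The summed row, too, passed the filter only through the iridophore libraries.

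For mthfd2, the mitochondrial dehydrogenase and cyclohydrolase, the suffixed row mthfd2_1 was the one with counts, and its identity with mthfd2 rests on the symbol alone. It had 40.3, 66.8 and 73.7 CPM in iridophore replicates 1, 2 and 3, and 14.1, 13.7 and 14.9 CPM in the control replicates. The groups did not overlap and the control values were close to each other. The log2 fold change was 2.11 (edgeR adjusted p 0.000293, SE 0.28).

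The gene aldh1l2 encodes the mitochondrial enzyme that oxidizes formyl folate to carbon dioxide, which removes the unit from biosynthesis. It had 0, 7 and 5 counts in iridophore replicates 1, 2 and 3, or 0, 10.16 and 2.81 CPM, and 16.1, 14.9 and 16.4 CPM in the control replicates. The control values lay close together and above every iridophore value, which were few counts and scattered. A count of 0 in iridophore replicate 1 allows a level of up to 5.50 CPM. The gene passed the count filter only through the control libraries. The log2 fold change was -1.93 (edgeR adjusted p 0.0240, SE 0.58). It did not pass the threshold once iridophore replicate 3 (edgeR adjusted p 0.124) or control replicate 3 (edgeR adjusted p 0.0528) was left out, and without iridophore replicate 2 the log2 fold change was -2.90.

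Glycine cleavage was lower in iridophores. The gene gldc encodes glycine decarboxylase, the subunit that removes the carboxyl group of glycine. Its levels were 62.3, 39.2 and 64.1 CPM in iridophore replicates 1, 2 and 3, and 244, 201 and 223 CPM in the control replicates. The highest iridophore value was far under the lowest control value, and the log2 fold change was -2.00 (edgeR adjusted p 0.000184, SE 0.24), the 177th from the lowest of the 6849 genes. The mean level of gldc in iridophores was 24.8% of that in the control.

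The remaining detected subunits of the cleavage system fell as well, by less. The gene gcshb, of the lipoyl carrier protein, had 291, 167.0 and 176.6 CPM in iridophore replicates 1, 2 and 3 and 478, 398 and 414 CPM in the control replicates, a log2 fold change of -1.03 (edgeR adjusted p 0.00830, SE 0.25). The gene dldh encodes dihydrolipoamide dehydrogenase, which pyruvate dehydrogenase and other complexes share. It averaged 257 ± 12.5 CPM in iridophores and 425 ± 25.4 CPM in control cells (SD, n = 3 each), a log2 fold change of -0.73 (edgeR adjusted p 0.00969, SE 0.18). Both were above the highest iridophore value in every control library.

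Markers of several cell types were lower in iridophores, as gldc was, among them those of intestine and some of liver. Over all tested genes 17.8% were called lower and 22.1% higher. Of 8 intestinal markers 7 were tested, 5 were lower and 0 were higher, with log2 fold changes of -2.20 to -0.68 and a median of -1.56. Their summed level was 7010 to 19990 CPM in iridophores and 23000 to 28350 CPM in control cells. Of 14 liver markers 12 were tested, 4 were lower and 0 were higher, with log2 fold changes of -1.68 to 1.45 and a median of -1.08. The 8 not called included fabp10a at -0.04, apoa2 at 0.03 and apobb.1 at 1.45 (edgeR adjusted p 0.958, 0.945 and 0.0614). The summed level of the liver markers was 1491 to 2178 CPM in iridophores and 2713 to 3577 CPM in control cells. None of the markers with a row in either list was at 0 in every iridophore library. Erythrocyte markers were lower as well, 4 of 5 tested (median -1.13), and so were 5 of 8 tested pancreas markers (median -1.34). The groups overlapped for every tested pancreas marker. Of 3 tested kidney tubule markers 1 was lower and 1 was higher. The part of these cell types in the lower levels of gldc, aldh1l2 and the other enzymes that fell was not tested.

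**Figure D2:**
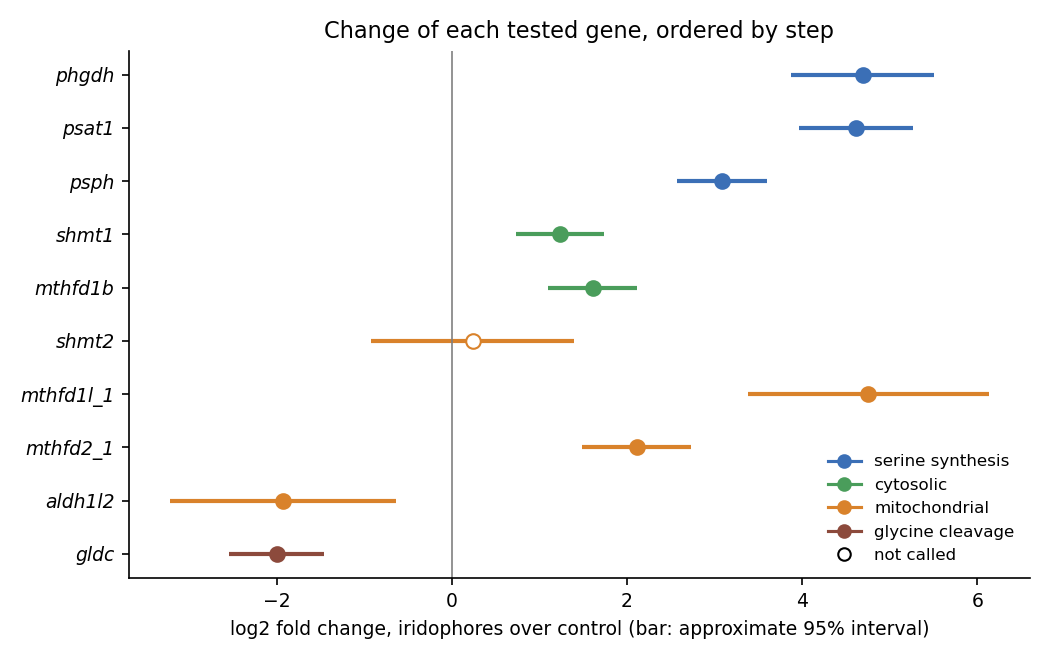
Log2 fold change of the 8 tested enzyme genes and of the suffixed rows mthfd1l_1 and mthfd2_1, iridophores over control, with approximate 95% intervals as bars, coloured by step; an open circle marks shmt2, which was not called. Values run from 4.69 for phgdh and 4.75 for mthfd1l_1 down to -1.93 for aldh1l2 and -2.00 for gldc.

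The replicates with the same library name ending gave similar values. In replicates 2 and 3 alone, the log2 fold changes were 4.45 for phgdh, 4.54 for psat1, 3.20 for psph, 1.301 for shmt1, 1.80 for mthfd1b, -1.61 for aldh1l2 and -2.01 for gldc, all at an edgeR adjusted p of 0.0335 or less. The gene shmt2 was at -0.09 (edgeR adjusted p 0.921) in that fit. Replicate 1 has 1 library in each group, which allows no test.

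Ratios between genes of opposed steps were taken within each library, as log2 of counts plus 0.5. Library size cancels in such a ratio only where both counts are well above the added 0.5. At low counts the ratio also shifts with depth. With 3 libraries against 3 the two-sided exact permutation test cannot give a p under 0.1, so none of the ratios could pass 0.05. The log2 ratio of mitochondrial to cytosolic serine hydroxymethyltransferase, shmt2 over shmt1, was -3.19, -5.75 and -4.62 in iridophore replicates 1, 2 and 3, against -3.31, -2.84 and -4.35 in the control replicates. The groups overlapped, and the difference of means was -1.02 (exact permutation p 0.3, 0.3 after Benjamini-Hochberg adjustment over 5 ratios). It was -0.40 without iridophore replicate 2 and -1.68 without iridophore replicate 1.

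The log2 ratio of mthfd1l over mthfd1b, mitochondrial over cytosolic, was -4.11, -2.49 and -2.65 in iridophore replicates 1, 2 and 3, against -8.34, -7.24 and -4.29 in the control replicates. The groups did not overlap, although iridophore replicate 1 and control replicate 3 were close. The difference was 3.54 (exact permutation p 0.1, adjusted 0.125). It depends on the added count and on depth, because the control counts of mthfd1l were 0, 0 and 3: with 2 counts added in place of 0.5 it was 2.27. Leaving out control replicate 1 gave 2.68 and leaving out control replicate 3 gave 4.71. It was 3.20 with mthfd1l and mthfd1l_1 summed, a ratio added after the values were seen, and 2.16 for that sum when control replicate 1 was left out.

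The log2 ratio of gldc over shmt2, glycine cleavage over mitochondrial glycine formation, was 2.02, 3.46 and 2.89 in iridophore replicates 1, 2 and 3, against 5.06, 4.27 and 5.68 in the control replicates. The iridophore values were all under the control values, with a difference of -2.21 (exact permutation p 0.1, adjusted 0.125). The planned ratio of mthfd2 over aldh1l2 could not be computed without a row for mthfd2. With mthfd2_1 in its place, a choice made after the values were seen, the log2 ratio was 5.49, 2.63 and 4.58 in iridophore replicates 1, 2 and 3, against -0.20, -0.12 and -0.14 in the control replicates. The difference was 4.39 (exact permutation p 0.1, adjusted 0.125). Iridophore replicate 1 had 0 counts of aldh1l2, so the value depends on the added count and on depth, and with 2 added it was 3.56. It was 3.76 without iridophore replicate 1 and 5.19 without iridophore replicate 2, which had the most counts of aldh1l2 in its group.

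**Figure D3:**
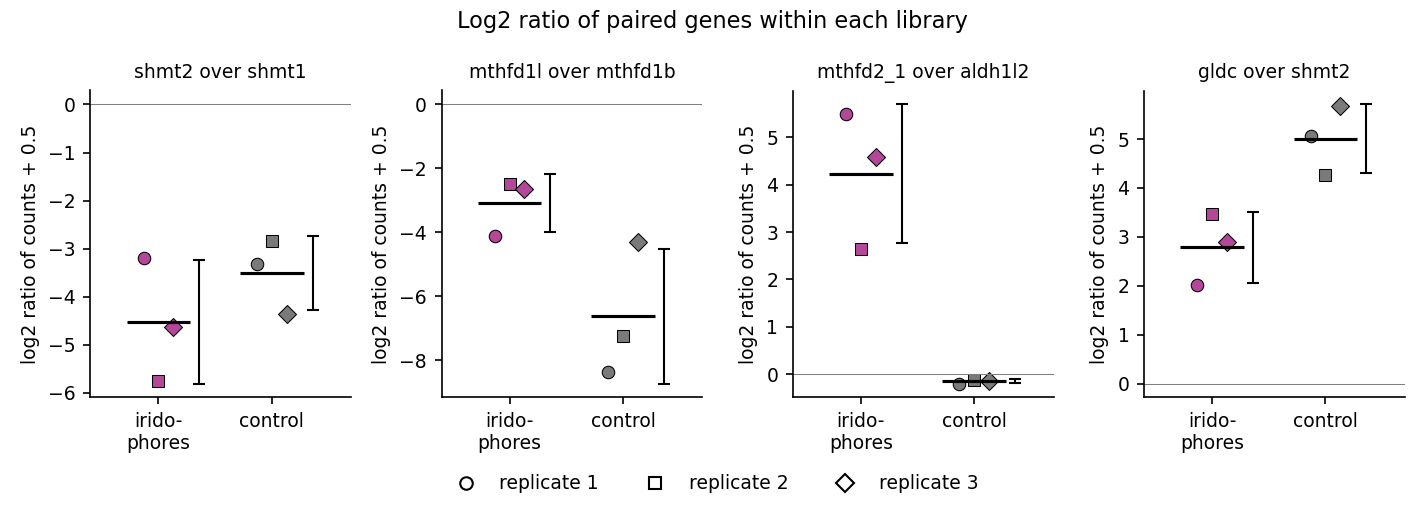
Log2 ratio of the counts of paired genes, each plus 0.5, within each library, with 1 symbol per library, the mean as a horizontal line and the SD as a bar (n = 3 per group), and axes that differ between panels. The groups overlap for shmt2 over shmt1 and not for the other 3 ratios, whose group means differ by 3.54, 4.39 and -2.21. The values 3.54 and 4.39 depend on the added count and on depth.

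The other genes of serine, glycine and one-carbon metabolism were taken from lists written by role. Of 77 listed genes 49 had a row and 42 were tested. Of these, 9 were higher (21.4%, against 22.1% of all tested genes) and 17 were lower (40.5%, against 17.8%), with a median log2 fold change of -0.73. Without iridophore replicate 3 the lower count was 11. The 9 higher genes were the 3 listed as enzymes that use folate carbon units, 3 transporters of serine and glycine, slc25a32a of a folate carrier, mthfs and agxtb. Of these, atic, slc38a5b, slc7a10a and slc25a32a would not have passed the count filter on the control libraries alone. Among the lower genes, slc1a4, pipox and agxta would not have passed it on the iridophore libraries alone. Such calls are not independent evidence.

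All 3 genes listed as enzymes that use folate carbon units were higher, against 22.1% of all tested genes. The list is not complete. Methionine synthase, encoded by mtr and listed with the methionine cycle, also takes a carbon unit from folate, and it was lower. Its log2 fold change was -1.16 (edgeR adjusted p 0.0164). Of the 3 listed genes, atic passed the count filter only through the iridophore libraries, where it is high. The gene atic, whose enzyme adds the last carbon of the purine ring, had 33.0, 36.3 and 33.7 CPM in iridophore replicates 1, 2 and 3 and 2.99, 4.17 and 7.69 CPM in the control replicates, a log2 fold change of 2.83 (edgeR adjusted p 0.000253, SE 0.36). The gene gart, whose enzyme takes up both glycine and a formyl group, averaged 47.6 ± 8.06 CPM in iridophores and 18.5 ± 2.34 CPM in control cells (SD, n = 3 each), a log2 fold change of 1.39 (edgeR adjusted p 0.00192). Thymidylate synthase, encoded by tyms and used for DNA rather than purine synthesis, averaged 36.7 ± 9.38 CPM in iridophores and 13.4 ± 2.45 CPM in control cells, a log2 fold change of 1.38 (edgeR adjusted p 0.00551).

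Of 15 listed transporters of serine and glycine 6 were tested, 3 were higher and 1 was lower. Of these, slc38a5b, slc7a10a and the lower slc1a4 passed the count filter only with the libraries of the group where they are high. The gene slc38a5b, of a sodium-coupled carrier of glutamine, serine and glycine, had 64.1, 292 and 231 CPM in iridophore replicates 1, 2 and 3 and 0.299, 25.0 and 8.72 CPM in the control replicates. Its libraries varied widely within both groups without overlap, and the log2 fold change of 4.26 (edgeR adjusted p 0.00437, SE 0.90) was 3.52 when control replicate 1 was left out, 5.52 when control replicate 2 was, and 6.04 by limma-voom. The gene slc7a10a, of an exchanger of small neutral amino acids, had 18.3, 47.9 and 75.4 CPM in iridophore replicates 1, 2 and 3 and 3.59, 6.55 and 6.15 CPM in the control replicates. Its log2 fold change was 3.2 (edgeR adjusted p 0.000599, SE 0.48), and 2.65 without iridophore replicate 3.

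A glycine carrier and a folate carrier of the mitochondrial membrane were among the genes that rose. Not every listed transporter did: sfxn2 was at a log2 fold change of -0.41 (edgeR adjusted p 0.510) and was not called. The listed sfxn1 was too low to be tested, with 0, 1 and 1 counts in iridophore replicates 1, 2 and 3 and 7, 5 and 5 in the control replicates. The gene slc25a38a, of the mitochondrial glycine carrier, averaged 82.8 ± 11.6 CPM in iridophores and 31.4 ± 3.99 CPM in control cells (SD, n = 3 each), a log2 fold change of 1.41 (edgeR adjusted p 0.000857, SE 0.22). The mitochondrial folate carrier gene slc25a32a averaged 16.1 ± 2.62 CPM in iridophores and 5.75 ± 1.78 CPM in control cells, a log2 fold change of 1.56 (edgeR adjusted p 0.00735) that was not called without iridophore replicate 3 (edgeR adjusted p 0.0618). The neutral amino acid transporter gene slc1a4 fell, with a log2 fold change of -2.05 (edgeR adjusted p 0.0374) on 0 to 8 counts in iridophores. That call was lost when any library other than control replicate 1 was left out (edgeR adjusted p 0.0548 to 0.1004), and under limma-voom (adjusted p 0.104).

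Folate interconversion outside the 10 named enzymes changed in both directions. Of 11 listed genes 7 had a row and 4 were tested. The gene mthfs, whose enzyme returns a storage form of formyl folate to the pool, rose to 73.3, 117.6 and 71.4 CPM in iridophore replicates 1, 2 and 3, against 26.6, 22.6 and 30.2 CPM in the control replicates. Its log2 fold change was 1.71 (edgeR adjusted p 0.000777, SE 0.26).

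The gene ftcd, which feeds carbon from histidine breakdown into folate, averaged 18.6 ± 8.96 CPM in iridophores and 35.7 ± 6.50 CPM in control cells (SD, n = 3 each), a log2 fold change of -1.09 (edgeR adjusted p 0.0417). Its call was lost without iridophore replicates 2 or 3 and without control replicates 1 or 2 (edgeR adjusted p 0.0769 to 0.162), with a log2 fold change of -0.68 without iridophore replicate 3.

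The pteridine reductase gene qdpra was at -0.76 on the log2 scale (edgeR adjusted p 0.0834). It passed the threshold in replicates 2 and 3 alone (edgeR adjusted p 0.0246) and with upper-quartile scaling (edgeR adjusted p 0.0428). Dihydrofolate reductase, dhfr, was not tested, with 5, 0 and 12 counts in iridophore replicates 1, 2 and 3 and 0, 1 and 3 counts in the control replicates. The cytosolic formyl folate dehydrogenase gene aldh1l1, with 4, 0 and 1 counts in iridophores and 8, 3 and 9 in the control, and the formyltransferase gene mtfmt, with 4, 1 and 10 counts in iridophores and 15, 8 and 8 in the control, were also too low to be tested. The folate receptor gene folr, deposited as zgc:165502, a synonym in RefSeq, fell to 129.9 ± 42.9 CPM in iridophores, against 268 ± 38.3 CPM in control cells, a log2 fold change of -1.06 (edgeR adjusted p 0.00943).

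A list of other enzymes around serine and glycine metabolism had 10 tested genes, of which 6 were not called. Of the 10, 1 was higher (10.0%, against 22.1% of all tested genes) and 3 were lower (30.0%, against 17.8%). The gene agxtb, of an aminotransferase that makes glycine from glyoxylate, averaged 208 ± 36.2 CPM in iridophores and 105.0 ± 25.2 CPM in control cells (SD, n = 3 each), a log2 fold change of 0.98 (edgeR adjusted p 0.0108). Its paralog agxta was lower, at -1.22 (edgeR adjusted p 0.0278), and lost that call without iridophore replicate 3 or without control replicates 2 or 3 (edgeR adjusted p 0.0524 to 0.105). The gene gatm, whose enzyme uses glycine to make the creatine precursor, averaged 477 ± 20.5 CPM in iridophores and 1503 ± 131 CPM in control cells, a log2 fold change of -1.65 (edgeR adjusted p 7.934e-05, SE 0.18). The serine dehydratase-like gene sdsl fell by 1.71 on the log2 scale (edgeR adjusted p 0.000955, SE 0.27).

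The methionine cycle, choline breakdown and transsulfuration formed the largest of these lists and the one with the most falls by count. Of 15 tested genes 8 were lower (53.3%, against 17.8% of all tested genes), 0 were higher and 7 were not called, with a median log2 fold change of -1.04. The largest fall was that of pipox, whose enzyme oxidizes sarcosine and pipecolate, at 8.21 ± 5.62 CPM in iridophores and 43.0 ± 17.4 CPM in control cells (SD, n = 3 each) and a log2 fold change of -2.56 (edgeR adjusted p 0.00192, SE 0.46). The gene mat1a, of the liver form of S-adenosylmethionine synthetase, was at -1.71 (edgeR adjusted p 0.000696), and cth, of the transsulfuration enzyme that yields cysteine, at -1.43 (edgeR adjusted p 0.00167).

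**Figure D4:**
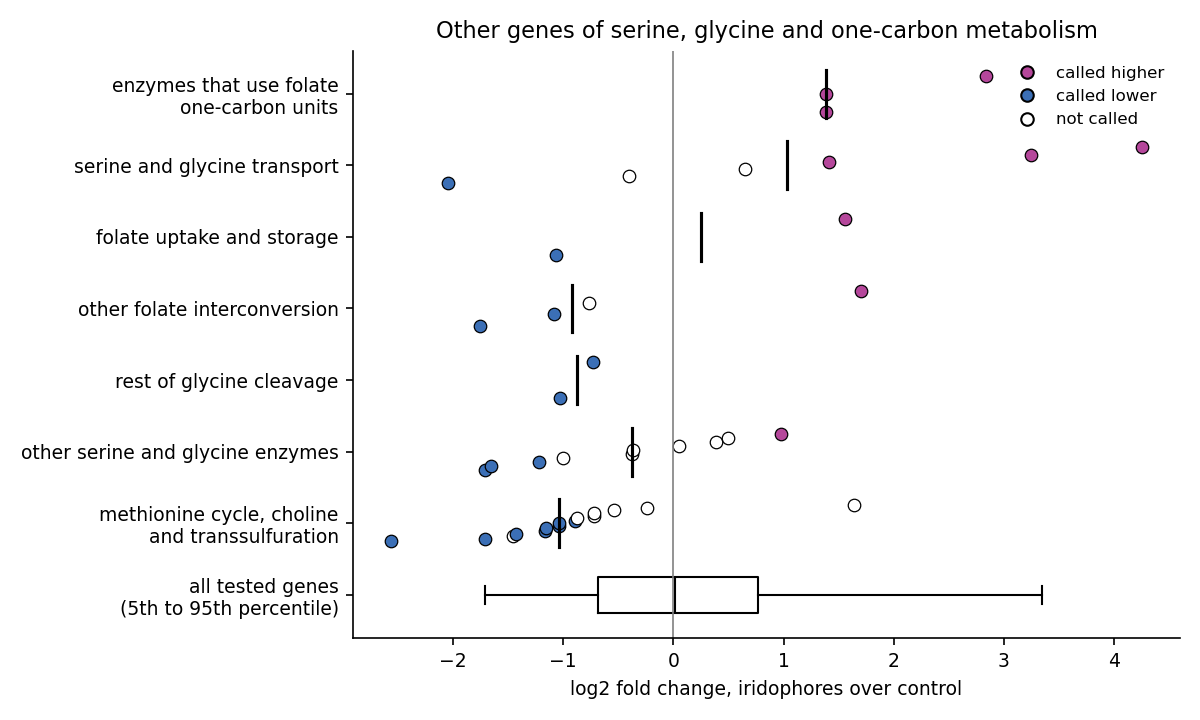
Log2 fold change of each of the 42 tested genes in the other lists of serine, glycine and one-carbon metabolism, iridophores over control, with 1 point per gene, the list median as a vertical line, and a box for all 6849 tested genes (quartiles, with whiskers at the 5th and 95th percentiles). The 3 genes listed as enzymes that use folate carbon units are all called higher. Of the 15 genes of the methionine cycle list, 8 are called lower, mtr among them.

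In mammals, phgdh, psat1, shmt2, mthfd2 and aldh1l2 have orthologs that the transcription factor ATF4 activates when amino acids are short, so other genes of that response were listed beside them. Of 30 listed genes 20 had a row and 19 were tested, with a median log2 fold change of -0.53. Of the 19, 3 were higher (15.8%, against 22.1% of all tested genes) and 7 were lower (36.8%, against 17.8%). The factor gene atf4a averaged 770.5 ± 109 CPM in iridophores and 459 ± 85.4 CPM in control cells (SD, n = 3 each), a log2 fold change of 0.74 (edgeR adjusted p 0.0172, SE 0.21). Leaving out iridophore replicate 2 or control replicates 2 or 3 ended that call (edgeR adjusted p 0.0682 to 0.148), as did DESeq2 (adjusted p 0.0516).

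The row si:ch211-160e1.5, which RefSeq pairs with nupr1a, a stress-induced nuclear protein gene, rose by a log2 fold change of 1.95 (edgeR adjusted p 0.000309, SE 0.26). The gene slc3a2b, of the heavy chain shared by amino acid exchangers, was at 1.55 (edgeR adjusted p 0.0380), a call lost without any 1 library other than iridophore replicate 1 (edgeR adjusted p 0.0503 to 0.198), with upper-quartile scaling and with library size alone (edgeR adjusted p 0.0565 and 0.0579). The tRNA ligase genes eprs and wars fell, at -1.20 (edgeR adjusted p 0.00844) and -1.03 (edgeR adjusted p 0.00929). The asparagine synthetase gene asns was at -0.94 (edgeR adjusted p 0.0437), a call lost when any 1 library other than iridophore replicate 3 was left out (edgeR adjusted p 0.0520 to 0.118). It was not called in replicates 2 and 3 alone, with library size alone, or by DESeq2 or limma-voom either (adjusted p 0.0503 to 0.0733), and without iridophore replicate 3 its log2 fold change was -1.54.

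The genes whose profiles were most like those of phgdh and gldc were found by distance. By the root mean square distance between log2 CPM profiles over the 6 libraries, each centred on its own mean, the nearest to phgdh were cox4i2, zgc:66433 and fhl2a, at 0.13, 0.15 and 0.17 log2 units. The gene cox4i2 encodes a subunit isoform of cytochrome c oxidase, and its log2 fold change was 4.82. Nearest to gldc were pacsin1b, abcd3a_1 and pfkfb1, at 0.10, 0.10 and 0.11 log2 units, with log2 fold changes of -1.96, -1.83 and -1.94. These distances describe 6 libraries in 2 groups, and the difference between the groups makes up most of each profile.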

How the data were processed

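Poly(A) RNA of 6 sorted zebrafish samples (3 of iridophores, 3 of control) was sequenced by bulk MARS-seq, per the labels' protocols. The deposited table holds raw read counts per gene symbol, as whole numbers with no normalization by the authors. The submitters' processing notes name cutadapt, STAR 2.5.2b, HTSeq, DESeq2 1.36.1 and the build danRer11. The annotation, the use of molecular identifiers, the strand setting and the filter on genes are not given in the sources used here; the highest count of each row was at least 6. Columns were matched to samples by the names in the sample descriptions, and 0 columns were without a sample. A numeric suffix ends 778 symbols, which were kept as they stood. RefSeq symbols of another assembly (GRCz12tu) were used for names alone, so no coordinates or sequences are given. RefSeq synonyms matched 1 symbol of the wider pathway lists and 6 of the stress list.

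Counts were fitted with edgeR 4.0.16 in R 4.3.3 after its default expression filter (minimum count 10, minimum total 15), which left 6849 genes with 98.7% of counts, and scaling by trimmed mean of M values. The quasi-likelihood F test had group as its only term, with Benjamini-Hochberg adjustment over all tested genes and a threshold of 0.05. Approximate standard errors come from dividing the size of each log2 fold change by the root of its F value, and intervals use the matching t quantile. The floor was 3 counts per library and covers counting error only; the ratio of mthfd1l has an exact conditional binomial interval (Clopper-Pearson). Ratios were compared by two-sided exact permutation tests (SciPy 1.17.1). The fit was tested on simulated data with known changes. It called 20.5% of 88 genes with a true change of 1 log2 unit and 80.9% of 94 with a change of 2. Far fewer genes changed there than were called in the data. A gene that was not called may thus still have changed. Log2 CPM for profile distances used a prior count of 2.

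The members and lists were chosen with earlier results of these data known. Named besides the 10 enzymes were up to 3 called genes with the largest rise and 3 with the largest fall in each list, all detected genes of glycine cleavage, folate interconversion and carbon use (1 result of these is not reported here), and the 3 profiles nearest to phgdh and to gldc. The suffixed rows, sfxn1, sfxn2 and mtr were added after their values were seen. Alternatives were other scalings, DESeq2 1.42.0, limma-voom (limma 3.58.1), no filter, a replicate block, the name ending as a term, replicates 2 and 3 alone, and each library left out.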

Additional observations from a re-analysis of the deposited data

How the results depend on the processing

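The count of enzymes called higher stayed between 5 and 7 under the alternatives tried and that of enzymes called lower was 2, except that it was 1 without iridophore replicate 3 and without control replicate 3, where aldh1l2 lost its call (range 1 to 2 over the libraries left out). The 7 came from using the suffixed rows, which adds mthfd2_1 and lets mthfd1l be tested. Over the libraries left out in turn, the wider lists had 8 to 11 genes called higher and 11 to 17 called lower. The genes phgdh, psat1, psph, shmt1, mthfd1b and gldc kept their direction and call under all 16 alternatives. The value of shmt2, never called, was negative in replicates 2 and 3 alone (-0.091), without iridophore replicate 1 (-0.14) and without control replicate 3 (-0.07), with a range of -0.14 to 0.57 over the libraries left out, and the cause was not tested. Of 35 other named genes that were called, mtr not included, 28 kept the call throughout. The gene mthfd1l was tested in 8 of the alternatives, among them the fit with no filter and that with mthfd1l_1 added to it, and was called higher each time. Where the count filter applied, mthfd1l passed it only through the iridophore libraries, where it is high, so those calls are not independent evidence. Its log2 fold change ran from 4.31 without control replicate 1 to 7.85 without control replicate 3, where every control library was at 0 and the fitted value depends on the prior count.

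Upper-quartile scaling moved the median log2 fold change of all genes to -0.14, against 0.01, and no direction among the 8 tested enzymes changed with scaling. With the replicate block, 1584 of all tested genes were called higher and 1387 lower, against 1513 and 1217 without it, and phgdh was at 4.74. In a fit with a term for the name ending, which sets replicate 1 of both groups apart, 1674 were called higher and 1467 lower. Neither fit changed a call among the enzymes. Deviations from the group means correlated at 0.315, 0.0709 and 0.175 between replicates of numbers 1, 2 and 3, at 0.119 and 0.120 between replicates 2 and 3 of opposite groups, and at -0.24 to -0.15 between replicate 1 of either group and replicates 2 or 3 of the other. Deviations cancel out within each group, so the negative values follow from the 0.315 and are not a separate result. The same holds for the joint size of the positive values among replicates 2 and 3. The pattern by name ending, whose meaning the labels do not give, thus rests on the 0.315 alone. The correlations did not pair replicates 2 and 3 by number. Depth limits shmt2, mthfd1l and aldh1l2, which rest on at most 54 counts in any library.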
